A study of Mus musculus with 6 samples.

Results

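The killer cell lectin-like receptor genes described here are Klrg1, Klrk1, Klrb1b, Klrb1c, Klrb1f, Klrd1, Klrc1 and Klrc2. They are a set given by gene name, drawn up with earlier results of these data known, and all 8 were found among the 38924 gene rows of each library. They were compared between 3 libraries of ILT3+CD4+CD25+ T cells and 3 libraries of ILT3-CD4+CD25+ T cells. Both groups were sorted by flow cytometry, after magnetic enrichment for CD4 and CD25, from the spleens and mesenteric lymph nodes of syngeneic WT mice that were untreated, male and female, and 10 to 16 weeks old. ILT3 belongs to the leukocyte immunoglobulin-like receptors and is inhibitory, and CD4+CD25+ cells are a fraction of T cells rich in regulatory T cells (Tregs). The labels name no strain and leave unsaid if a library is 1 animal or a pool. The p-values therefore measure how far these libraries spread, part of which may be technical.

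Killer cell lectin-like receptors are transmembrane proteins of the C-type lectin fold, encoded in mice by a gene complex on one chromosome and best known from natural killer (NK) cells. Some carry an inhibitory tyrosine motif in the cytoplasmic tail and recruit phosphatases, while others have no signalling motif of their own and rely on adaptor proteins such as DAP10, DAP12 or the Fc receptor gamma chain. Subsets of activated T cells also express members of the family, and KLRG1 is widely used as a surface marker of terminally differentiated effector T cells and Tregs.

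All 8 genes lie on chromosome 6 of GRCm38, and no model overlaps another row of the files. Klrg1 (122270596 to 122282882, minus strand) lies apart from the rest. Klrb1c (128778485 to 128789215, minus), Klrb1b (128813706 to 128826331, minus) and Klrb1f (129045901 to 129057471, plus) form a neighbourhood of NKR-P1 receptor genes. Klrd1 (129591782 to 129598775, plus), Klrk1 (129610323 to 129623864, minus), Klrc2 (129647496 to 129660689, minus) and Klrc1 (129666015 to 129678973, minus) follow in a second one. The annotation GENCODE M21 lists all of them as protein-coding genes. RefSeq promoter sequences, which run from 250 bases before to 50 bases after the annotated start, were found for 6 of the 8 genes and not for Klrg1 or Klrd1. Those of Klrb1b, Klrb1f and Klrk1 are printed because these genes had the widest gaps between the groups among tested members. Capitals mark the longest run of bases that the Klrb1b and Klrb1f promoters share, and in Klrk1 the letters of 2 motifs.
Klrb1b promoter, GRCm38.p6 chr6:128826266-128826565, minus strand: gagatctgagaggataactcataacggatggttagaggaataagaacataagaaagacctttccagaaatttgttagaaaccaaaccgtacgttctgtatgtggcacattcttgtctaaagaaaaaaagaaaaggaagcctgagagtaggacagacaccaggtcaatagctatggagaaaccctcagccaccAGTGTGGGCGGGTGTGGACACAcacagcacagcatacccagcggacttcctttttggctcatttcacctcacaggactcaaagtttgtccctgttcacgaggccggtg
Klrb1f promoter, GRCm38.p6 chr6:129045651-129045950, plus strand: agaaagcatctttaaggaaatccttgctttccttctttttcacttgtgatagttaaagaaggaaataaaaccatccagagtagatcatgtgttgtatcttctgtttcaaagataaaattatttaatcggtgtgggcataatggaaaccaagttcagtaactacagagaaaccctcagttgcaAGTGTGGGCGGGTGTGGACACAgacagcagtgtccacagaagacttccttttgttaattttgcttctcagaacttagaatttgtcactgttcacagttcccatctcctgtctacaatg
Klrk1 promoter, GRCm38.p6 chr6:129623815-129624114, minus strand: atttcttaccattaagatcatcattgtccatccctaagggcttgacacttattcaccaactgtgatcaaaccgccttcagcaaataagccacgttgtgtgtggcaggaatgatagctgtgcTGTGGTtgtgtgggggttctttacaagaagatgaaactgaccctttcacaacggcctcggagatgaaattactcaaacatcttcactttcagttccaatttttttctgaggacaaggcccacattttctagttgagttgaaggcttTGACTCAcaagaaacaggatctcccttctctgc

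The Klrb1b and Klrb1f promoters share a run of 22 bases, which starts at base -58 in Klrb1b and at base -68 in Klrb1f relative to the start site. Among the promoters of 27025 genes, 2 hold this run, namely these same genes. The longest run that the Klrk1 promoter shares with Klrb1b or with Klrb1f has 7 bases. Motif letters were searched on both strands. The RUNX letters TGTGGT occur once in Klrk1 and are not in the Klrb1b or Klrb1f window, and 16.9% of all promoters hold them. The AP-1 letters TGANTCA occur once in Klrk1 (7.93% of all promoters). The ETS letters GGAAGT occur once each in Klrb1b and Klrb1f, on the opposite strand (24.1% of all promoters). The T-box letters AGGTGTNA are in none of the 3 windows (3.03% of all promoters). These matches describe letters and no binding was measured.

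The ILT3+ libraries held 10768217 to 11960289 total gene reads and the ILT3- libraries 9334370 to 13648274. Values are given as raw reads or as CPM, the count scaled to a common library size after TMM, a normalization that levels libraries on the bulk of their genes. A count of 0 still allows a level of up to 3 reads, which is 0.218 to 0.360 CPM. One library stood apart before any receptor is considered. The summed level of 9 monocyte and macrophage markers was 576, 25.0 and 24.9 CPM in ILT3+ samples 1, 2 and 3, against 19.0, 17.6 and 7.92 CPM in ILT3- samples 1, 2 and 3. Csf1r, the receptor for the macrophage growth factor CSF1, made up 266 CPM of this in ILT3+ sample 1, against 2.25 and 0.399 CPM in ILT3+ samples 2 and 3. The sort itself was visible in Lilrb4, the gene of ILT3, at 304, 284 and 407 CPM in ILT3+ samples 1, 2 and 3, against 3.24, 4.32 and 5.81 CPM in ILT3- samples 1, 2 and 3, although its reads may be shared with a neighbouring copy. The T cell and Treg genes Cd3d, Cd3e, Cd3g, Cd4, Foxp3, Il2ra, Ctla4 and Ikzf2 were abundant in every library, and 0 of the 8 passed the test by edgeR, by DESeq2 or at an unadjusted p under 0.05.

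Summed together, these receptors were far more abundant in the ILT3+ libraries, which rested mostly on Klrg1 and Klrb1b. The 8 genes together had 531, 463 and 362 CPM in ILT3+ samples 1, 2 and 3, against 57.3, 22.9 and 36.0 CPM in ILT3- samples 1, 2 and 3. Klrg1 made up 55.8%, 67.2% and 64.9% of these reads in the ILT3+ libraries, against 94.5%, 74.0% and 72.5% in the ILT3- libraries. Klrb1b made up 25.8%, 29.1% and 32.4% in the ILT3+ libraries, against 0%, 22.6% and 22.0% in the ILT3- libraries. Klrd1, Klrc1 and Klrc2 added few reads in either group. The filter on low counts was passed by 5 of the 8 genes. Of these, Klrg1, Klrb1b and Klrk1 were higher in ILT3+ cells and none was lower, by edgeR's quasi-likelihood test at an adjusted p of 0.05. Klrb1f and Klrc1 did not pass it. Over all 13694 tested genes 1.96% were called higher and 0.343% lower, 2.31% in all, while 13.8% had an unadjusted p under 0.05. The groups did not overlap in 4 of the 5 tested genes, Klrg1, Klrb1b, Klrk1 and Klrb1f, all higher in ILT3+ cells, and 11.4% of all tested genes had this pattern. Other readings called larger or smaller shares of their tested genes higher: 2.23% on unique gene reads, 1.79% on total exon reads, 1.61% on unique exon reads, 1.37% without an expression filter and 5.09% by DESeq2. The share was 4.18% with the sample number as a block, where 6.81% were called in all, and 4.48% without both samples numbered 1. Fits that left out 1 library called 1.51%, 0.356% and 0.39% higher without ILT3+ samples 1, 2 and 3, and 1.91%, 0.44% and 0.187% without ILT3- samples 1, 2 and 3, so that most such fits made far fewer calls over all genes as well. Klrk1 and Klrb1f had under 20 reads in each ILT3- library and passed the filter on low counts only through the ILT3+ libraries, so a call in the other direction was hardly possible. Klrb1b, with 0, 66 and 109 reads in ILT3- samples 1, 2 and 3, would not have passed it on the ILT3- libraries alone either. Without the filter its adjusted p was 0.160 (edgeR). In bulk libraries, more cells that express a receptor and more RNA per cell cannot be told apart.

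**Figure D1:**
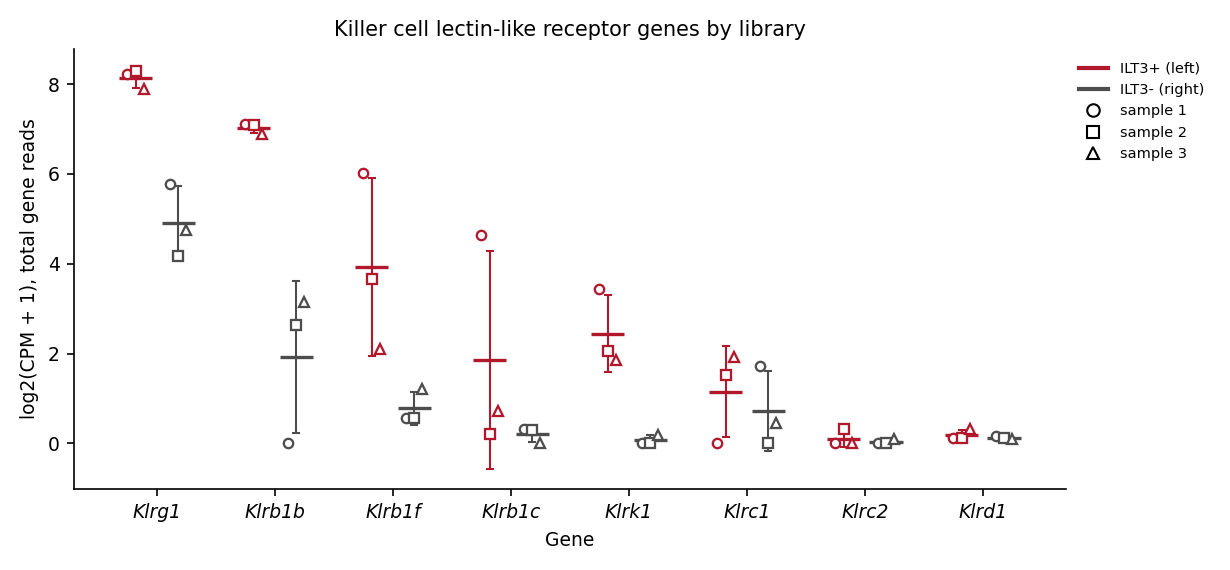
Levels of the 8 receptor genes as log2(CPM + 1) of total gene reads, with ILT3+ libraries in red left of ILT3- libraries in grey for each gene. Symbols mark samples 1, 2 and 3, horizontal bars the mean and error bars the SD (n = 3 each). Klrg1 and Klrb1b are high in all 3 ILT3+ libraries, whereas Klrb1f and Klrb1c are highest in ILT3+ sample 1, at 64.2 and 23.9 CPM.

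Klrg1, an inhibitory receptor for cadherins of epithelial and other cells, was the most abundant member. It had 3155, 3867 and 2948 reads in ILT3+ samples 1, 2 and 3, against 451, 216 and 359 reads in ILT3- samples 1, 2 and 3. In CPM this was 296, 311 and 235 in ILT3+ libraries, against 54.2, 17.0 and 26.1 in ILT3- libraries. Every ILT3+ library lay above every ILT3- library, and ILT3- sample 1 was the highest of its group. Klrg1 averaged 281 ± 40.1 CPM in ILT3+ libraries and 32.4 ± 19.4 CPM in ILT3- libraries (SD, n = 3 each). edgeR put the log2 fold change at 3.12 with an SE of 0.42 (adjusted p = 0.0127). Nearly all of its reads, 99.8%, were placed uniquely, and none of the 50-base stretches of its transcript occurs in a transcript of another gene. Exon reads alone, at 2906, 3415 and 2579 in ILT3+ and 418, 150 and 333 in ILT3- libraries, gave 3.11 on the log2 scale with an SE of 0.49 (adjusted p = 0.0269, edgeR). Reads across exon junctions, which come from spliced RNA, numbered 1108 in ILT3+ and 105 in ILT3- libraries. Some fits with 1 library fewer lost the call. Dropping ILT3+ sample 2 or 3 gave an adjusted p of 0.0590 or 0.0504, and dropping ILT3- sample 3 gave 0.0806 (edgeR), while the log2 fold change was 2.82 to 3.70 over the 6 fits that left out 1 library. Within each sample number the difference in log2(CPM + 1) was positive, at 2.43, 4.12 and 3.12 for the numbers 1, 2 and 3.

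The NKR-P1 receptors, a group with both inhibitory and activating members, differed in how evenly the ILT3+ libraries held them. Klrb1b encodes an inhibitory receptor whose ligand Clr-b is the product of Clec2d. It had 1460, 1678 and 1471 reads in ILT3+ samples 1, 2 and 3, against 0, 66 and 109 reads in ILT3- samples 1, 2 and 3. The ILT3+ libraries were close to each other at 137, 135 and 117 CPM, whereas the ILT3- libraries were spread over 0, 5.19 and 7.92 CPM. Klrb1b averaged 130 ± 10.8 CPM in ILT3+ libraries and 4.37 ± 4.02 CPM in ILT3- libraries (SD, n = 3 each). Its log2 fold change by edgeR was 4.84 with an SE of 0.91 (adjusted p = 0.0392). In ILT3- sample 1, the library without a Klrb1b read, 3 reads would correspond to 0.360 CPM. Without it, the SE fell to 0.28 and the adjusted p was 0.00146 (edgeR, log2 fold change 4.30). Leaving out any of the other libraries ended the call, with adjusted p of 0.0626, 0.133 and 0.127 without ILT3+ samples 1, 2 and 3, and of 0.175 and 0.118 without ILT3- samples 2 and 3 (edgeR). Without a filter on low counts the adjusted p was 0.160. Of its reads 93.3% were placed uniquely, and unique reads alone gave 1371, 1548 and 1378 in ILT3+ and 0, 62 and 105 in ILT3- libraries, with a log2 fold change of 4.80 (adjusted p = 0.0376, edgeR). Of the 50-base stretches of its transcripts 27.2% also occur in another gene's transcript, mostly in the GENCODE model Gm44511 (25.5%).

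Klrb1f encodes an activating member with the Clec2i product among its ligands. It had 684, 144 and 41 reads in ILT3+ samples 1, 2 and 3, against 4, 6 and 18 reads in ILT3- samples 1, 2 and 3. At 64.2, 11.6 and 3.27 CPM in ILT3+ libraries against 0.481, 0.471 and 1.31 CPM in ILT3- libraries, the groups did not overlap, but the ILT3+ libraries differed among themselves by 19.6-fold. Its log2 fold change by edgeR, 5.07 with an SE of 1.16, did not pass the test (adjusted p = 0.0765), and it was 3.26 without ILT3+ sample 1 (adjusted p = 0.123). DESeq2 did call the gene (log2 fold change 5.11, adjusted p = 2.75e-06). Unique placement was nearly complete, at 99.8% of reads. Introns held 53.6% of its few ILT3- reads and 5.06% of its ILT3+ reads, so on exon reads the ILT3- libraries had 3, 2 and 8 and the ILT3+ libraries 671, 128 and 26.

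Klrb1c encodes the NK cell antigen NK1.1, an activating receptor that signals through the Fc receptor gamma chain. It had 255, 2 and 8 reads in ILT3+ samples 1, 2 and 3, against 2, 3 and 0 reads in ILT3- samples 1, 2 and 3. Thus 96.8% of its ILT3+ level came from ILT3+ sample 1, the library with the macrophage genes, and the groups overlapped. Outside ILT3+ sample 1 its reads were too few to pass the filter on low counts. Without the filter its log2 fold change was 5.69 (adjusted p = 0.320, edgeR). The ratio of all ILT3+ to all ILT3- reads was 51.8 at equal depth (exact 95% counting interval 21.9 to 161), which covers counting error only and compares the libraries, not the groups.

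Klrk1 encodes NKG2D, an activating receptor for stress-induced ligands of the MHC class I type, which signals through DAP10 and, in mice, DAP12. It was scarce, with 104, 39 and 33 reads in ILT3+ samples 1, 2 and 3, against 0, 0 and 2 reads in ILT3- samples 1, 2 and 3. All ILT3+ libraries lay above all ILT3- libraries, with 9.76, 3.14 and 2.63 CPM against 0, 0 and 0.145 CPM, and ILT3+ sample 1 held 62.8% of the ILT3+ level. Klrk1 averaged 5.18 ± 3.98 CPM in ILT3+ libraries and 0.0484 ± 0.0839 CPM in ILT3- libraries (SD, n = 3 each). edgeR put the log2 fold change at 6.30 with an SE of 1.17 (adjusted p = 0.0381). With 2 ILT3- reads in all, the ratio at equal depth was 86.0 with an exact 95% counting interval of 23.5 to 716. All of its reads were placed uniquely. On exon reads, with 85, 37 and 21 in ILT3+ and 0, 0 and 2 in ILT3- libraries, the test was not passed (adjusted p = 0.0614, edgeR). The adjusted p was 0.0695, 0.0996 and 0.0938 without ILT3+ samples 1, 2 and 3, and 0.0685, 0.154 and 0.117 without ILT3- samples 1, 2 and 3 (edgeR), so the call was lost whichever library was left out.

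**Figure D2:**
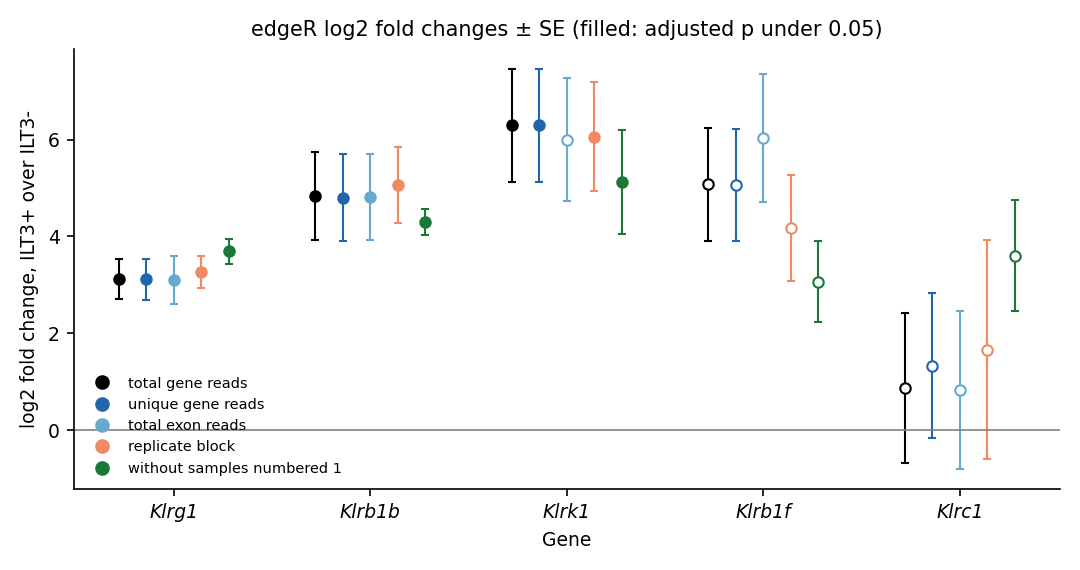
log2 fold changes of ILT3+ over ILT3- cells for the 5 tested receptor genes, as points with the SE of edgeR as bars, for total gene, unique gene and total exon reads, with the sample number as a block and without both samples numbered 1. Filled points passed an adjusted p of 0.05. Klrg1 stays between 3.11 and 3.69 in these 5 fits, and Klrb1f ranges from 3.07 to 6.03 without passing.

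The heterodimer of CD94 and NKG2A, the main inhibitory receptor for the class I molecule Qa-1, was hardly detected. Klrd1, which encodes its CD94 chain, had 1, 1 and 3 reads in ILT3+ samples 1, 2 and 3, against 1, 1 and 1 reads in ILT3- samples 1, 2 and 3, all at or under the 3-read limit of detection. Klrc1, which encodes NKG2A, had 0, 23 and 35 reads in ILT3+ samples 1, 2 and 3, against 19, 0 and 5 reads in ILT3- samples 1, 2 and 3. Each group thus held a library without reads, the ranges overlapped, and the log2 fold change by edgeR, 0.88 with an SE of 1.55, was smaller than its error (adjusted p = 0.883). By sample number the difference in log2(CPM + 1) was -1.71, 1.51 and 1.48 for the numbers 1, 2 and 3, and without both samples numbered 1 edgeR put it at 3.61 on the log2 scale with an SE of 1.15 (adjusted p = 0.134). Klrc2, which encodes the activating partner chain NKG2C, had 3 reads in ILT3+ sample 2, 1 read in ILT3- sample 3 and 0 in the other libraries. Klrc1 and Klrc2 are close copies: 36.6% of the 50-base stretches of Klrc1 transcripts also occur in Klrc2, and 57.3% of the Klrc1 reads were placed uniquely. Their reads are therefore uncertain between the copies.

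Per length of exon, the order of the members in ILT3+ cells was led by Klrg1. Exon reads per kilobase of exon, scaled like CPM, were 178 ± 27.7 for Klrg1 and 51.2 ± 4.45 for Klrb1b in ILT3+ cells (SD, n = 3 each). Next came Klrb1f at 14.7 ± 19.3 and Klrb1c at 2.65 ± 4.40, both spread widely over the libraries. Klrb1f lay above Klrb1c in every ILT3+ library. Its levels were 36.9, 6.03 and 1.21 in ILT3+ samples 1, 2 and 3, against 7.73, 0.0543 and 0.162 for Klrb1c. Klrk1 was at 0.975 ± 0.770 and Klrc1 at 0.780 ± 0.716, within the spread of each other and of Klrb1c. Klrd1 at 0.0624 ± 0.0623 and Klrc2 at 0.0138 ± 0.0240 were lowest. In ILT3- cells Klrg1 also led, at 20.3 ± 13.9, followed by Klrb1b at 1.75 ± 1.59 (SD, n = 3 each), and every other member was under 0.5.

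Among the members were a pair spread evenly over the ILT3+ libraries and 3 genes weighted to ILT3+ sample 1. Klrc1 was in neither set, with 0, 23 and 35 reads in ILT3+ samples 1, 2 and 3. Klrd1 and Klrc2 had too few reads to be placed. ILT3+ sample 1 held 35.1% of the ILT3+ level of Klrg1 and 35.2% of that of Klrb1b. It held 62.8% for Klrk1, 81.2% for Klrb1f and 96.8% for Klrb1c. For comparison it held 99.0% of the level of Csf1r, 67.4% of that of the adaptor gene Tyrobp and 32.8% of that of the adaptor gene Fcer1g. The part of macrophage or other cells in the Klrb1f, Klrb1c and Klrk1 signal was not tested. Both Klrk1 and Klrb1f were detected as well in the other ILT3+ libraries. Without ILT3+ sample 1 alone, the adjusted p of Klrk1 was 0.0695 (edgeR). Without both samples numbered 1 edgeR put Klrk1 at 5.12 on the log2 scale with an SE of 1.08 (adjusted p = 0.0382). In the same fit Klrg1 and Klrb1b had log2 fold changes of 3.69 and 4.29 (adjusted p = 0.000571 and 0.000330, edgeR), and Klrb1f had 3.07 (adjusted p = 0.0887).

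**Figure D3:**
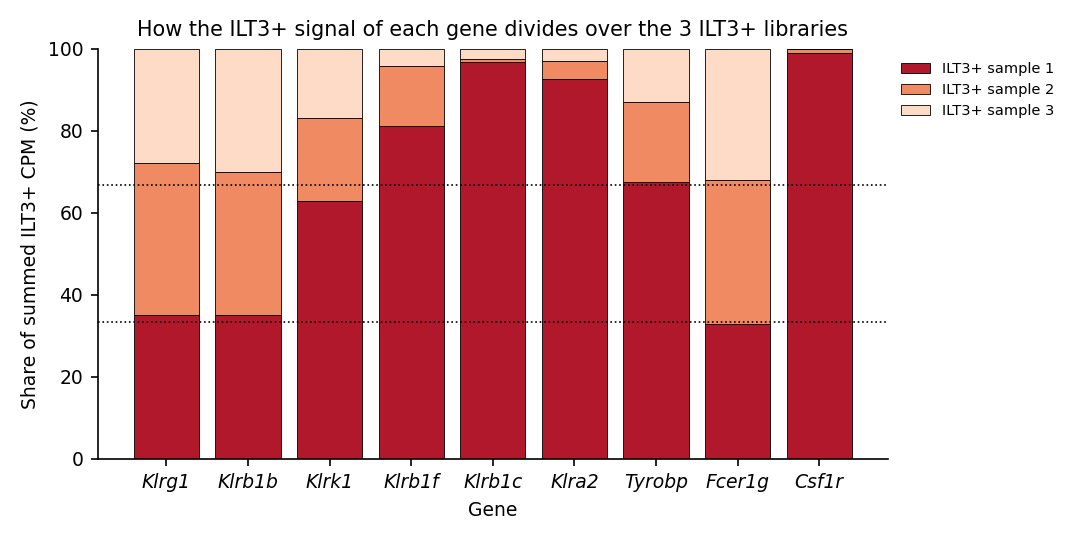
Share of each gene's summed ILT3+ CPM found in ILT3+ samples 1, 2 and 3, as stacked bars in percent, with dotted lines at an even division. Klrg1, Klrb1b and Fcer1g lie near the even division, whereas 81.2% of Klrb1f, 96.8% of Klrb1c and 99.0% of Csf1r came from ILT3+ sample 1.

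Markers of other cells that carry these receptors were read beside the members. The summed level of the 12 genes in the NK cell list was 235, 151 and 203 CPM in ILT3+ samples 1, 2 and 3, against 221, 84.4 and 110 CPM in ILT3- samples 1, 2 and 3, so the groups overlapped. Within each sample number the sum of the NK cell list was higher in the ILT3+ library. Of the 8 tested NK cell genes, Cd244 and Sh2d1b1 were higher and none was lower by edgeR. DESeq2 called 3, these and Fcgr3 (adjusted p = 6.9e-05, DESeq2), and 3 had an unadjusted p under 0.05 by edgeR. Ncr1, the NK cell receptor NKp46, had 5.82, 0 and 0.638 CPM in ILT3+ samples 1, 2 and 3, against 0.961, 0 and 0 CPM in ILT3- samples 1, 2 and 3. Cd8a and Cd8b1 together were at 17.4, 13.8 and 17.8 CPM in ILT3+ libraries, against 30.8, 11.5 and 17.1 CPM in ILT3- libraries, with 0 of 2 called by edgeR or DESeq2 and 0 at an unadjusted p under 0.05. Gamma-delta T cell genes summed to 39.3, 7.16 and 7.50 CPM in ILT3+ libraries, against 10.2, 1.49 and 0.872 CPM in ILT3- libraries, with 0 of 3 called by either tool and 0 at an unadjusted p under 0.05. Within each sample number this sum was higher in the ILT3+ library. Without both samples numbered 1, edgeR called Tcrg-C1, a T cell receptor gamma constant gene (log2 fold change 5.91, adjusted p = 0.0310), and with the block its adjusted p was 0.0592. The NKT cell list had 0 of 3 called by edgeR, 1 with the block, 1 by DESeq2 and 1 at an unadjusted p under 0.05. It summed to 9.85, 9.09 and 3.75 CPM in ILT3+ libraries, against 5.41, 2.51 and 3.20 CPM in ILT3- libraries. The gene so called was Zbtb16, at 7.69, 8.04 and 1.20 CPM in ILT3+ libraries, against 0.240, 0.314 and 0 CPM in ILT3- libraries. The T cell receptor segments Trav11d and Traj18 had negative log2 fold changes, -0.96 and -0.65 (adjusted p = 0.715 and 0.771, edgeR). The innate lymphoid cell genes Kit, Il22 and Tmem176b were higher, out of 5 tested and 7 considered, 4 of which were called with the block and 4 by DESeq2. These 7 summed to 758, 433 and 398 CPM in ILT3+ libraries, against 57.2, 36.6 and 38.0 CPM in ILT3- libraries. Dendritic cell genes, with H2-Aa, Cd74, Ciita and Fscn1 of 7 tested higher, summed to 2255, 1486 and 1393 CPM in ILT3+ libraries, against 159, 172 and 155 CPM in ILT3- libraries. Most of each sum was Cd74, at 1724, 1230 and 1148 CPM in ILT3+ libraries, against 137, 150 and 131 CPM in ILT3- libraries. The 3 tested genes without a call, Flt3, Zbtb46 and Xcr1, had log2 fold changes of 0.15, 1.74 and 2.68 (adjusted p = 0.955, 0.337 and 0.539, edgeR). With the block Zbtb46 was called (adjusted p = 0.0386, edgeR). Itgax, Siglech and Clec9a did not pass the filter on low counts. B cell genes, with 0 of 4 called by edgeR or DESeq2 and 1 at an unadjusted p under 0.05, summed to 64.5, 37.0 and 28.6 CPM in ILT3+ libraries, against 29.8, 20.7 and 21.1 CPM in ILT3- libraries. Of 6 tested monocyte and macrophage genes, edgeR called 0 without the block and 2 had an unadjusted p under 0.05. With the block it called C1qb and C1qc, complement genes of macrophages, both higher in ILT3+ cells (adjusted p = 0.0146 and 0.0362). DESeq2 gave an adjusted p to 3 of the 6 and called 0 of these. The part of such cells in the receptor results was not tested.

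The adaptors through which the activating receptors signal did not move together. Of 16 adaptor and signalling genes, all tested, Fcer1g, Tyrobp and Plcg2 were higher and none was lower, with a median log2 fold change of -0.13 against -0.02 over all tested genes. Fcer1g, the Fc receptor gamma chain, had 143, 153 and 140 CPM in ILT3+ samples 1, 2 and 3, against 7.21, 6.21 and 5.38 CPM in ILT3- samples 1, 2 and 3 (log2 fold change 4.54 ± 0.21 SE, adjusted p = 0.000327, edgeR). The libraries of each group lay within a narrow band. Tyrobp, which encodes DAP12, was at 47.8, 13.8 and 9.25 CPM in ILT3+ libraries, against 1.80, 0.471 and 0.872 CPM in ILT3- libraries (log2 fold change 4.52 ± 0.83 SE, adjusted p = 0.0377, edgeR), and was highest in ILT3+ sample 1. Hcst, which encodes DAP10, was at 63.3, 25.5 and 28.5 CPM in ILT3+ libraries, against 82.2, 24.0 and 30.1 CPM in ILT3- libraries (log2 fold change -0.21 ± 0.54 SE, adjusted p = 0.918, edgeR). Plcg2, a phospholipase downstream of such adaptors, was at 84.0, 69.2 and 66.9 CPM in ILT3+ libraries, against 0.961, 5.81 and 4.29 CPM in ILT3- libraries (log2 fold change 4.28, adjusted p = 0.0116, edgeR). The most abundant genes without a call were the kinase gene Lck (757 ± 113 CPM in ILT3+ libraries and 983 ± 192 CPM in ILT3- libraries) and the T cell receptor zeta chain gene Cd247 (565 ± 41.6 CPM in ILT3+ libraries and 717 ± 97.8 CPM in ILT3- libraries, SD, n = 3 each). With the sample number as a block, 3 of the 16 genes were called higher, the same Fcer1g, Tyrobp and Plcg2, and 3 lower, Pik3r1, Plcg1 and Ptpn6. Pik3r1, a PI3-kinase subunit gene, and Plcg1, a phospholipase gene, then had log2 fold changes of -0.58 and -0.63 (adjusted p = 0.0459 and 0.0426, edgeR). Of the phosphatase genes, Ptpn6, which encodes SHP-1, then had an adjusted p of 0.0464 (without the block log2 fold change -0.81, adjusted p = 0.132), and Inpp5d, which encodes SHIP-1, one of 0.0791 (0.44, adjusted p = 0.262).

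**Figure D4:**
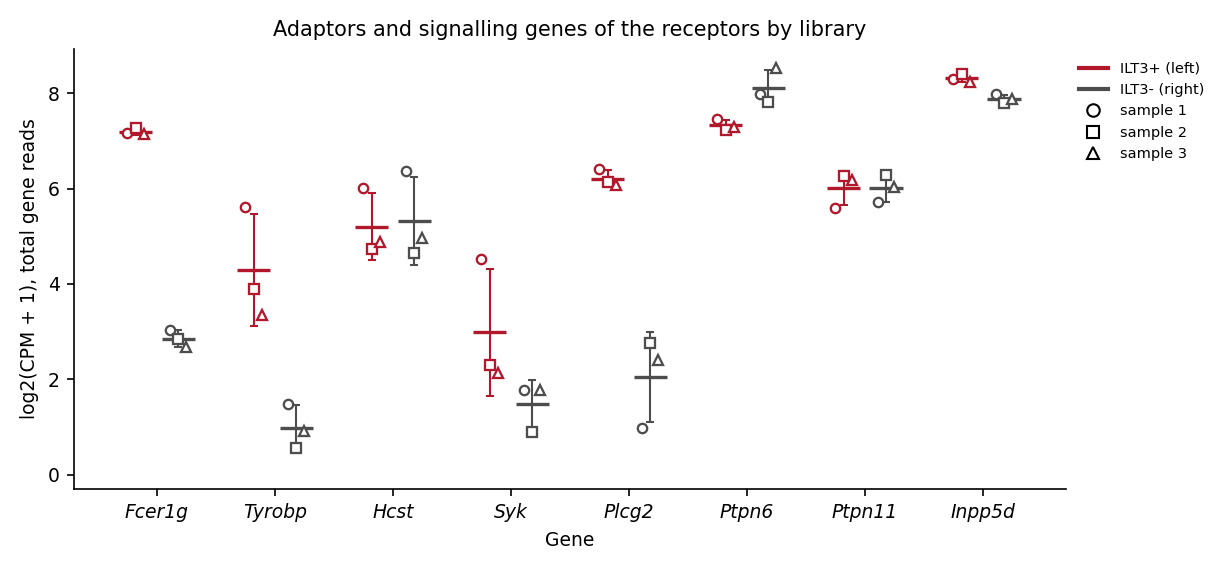
Levels of adaptor and signalling genes as log2(CPM + 1) of total gene reads, drawn as for the receptors, with ILT3+ libraries left of ILT3- libraries, means as horizontal bars and the SD as error bars (n = 3 each). Fcer1g, Tyrobp and Plcg2, the called genes, are separated between the groups. Syk and Inpp5d also lie higher and Ptpn6 lower in every ILT3+ library, without a call on group only, while Hcst and Ptpn11 overlap.

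Genes of the receptors' ligands were expressed in both groups without a detected difference. Of 16 ligand genes 12 were in the files by name and 10 had enough reads. None of these 10 was called by edgeR or DESeq2, and 1 had an unadjusted p under 0.05 (median log2 fold change 0.12). Raet1e, which encodes an NKG2D ligand, was at 274 ± 22.1 CPM in ILT3+ libraries and 374 ± 90.8 CPM in ILT3- libraries, and H2-T23, which encodes Qa-1, at 163 ± 21.0 CPM in ILT3+ libraries and 124 ± 34.5 CPM in ILT3- libraries (SD, n = 3 each). Cdh1, the E-cadherin gene of a KLRG1 ligand, was at 2.44, 2.17 and 1.52 CPM in ILT3+ libraries, against 3.12, 2.51 and 1.82 CPM in ILT3- libraries. These values lay close together.

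Transcription factors and a cytokine receptor linked to effector lymphocytes were partly higher. Of 13 tested genes in the list of 14, Runx3, Prdm1 and Id2 were higher and none was lower (median log2 fold change 0.94). With the sample number as a block, 4 were called higher, these and Tbx21, and 3 lower, namely Id3, Bach2 and Foxo1, which are linked to resting T cells. Id3 and Foxo1 then had log2 fold changes of -2.08 and -0.72 (adjusted p = 0.0173 and 0.0163, edgeR), and Tbx21, which encodes T-bet, one of 2.49 (adjusted p = 0.00763). Runx3 had 55.4, 107 and 143 CPM in ILT3+ samples 1, 2 and 3, against 12.7, 13.7 and 12.2 CPM in ILT3- samples 1, 2 and 3 (log2 fold change 2.98 ± 0.35 SE, adjusted p = 0.00980, edgeR). Unlike Klrb1f and Klrb1c, it was lowest in sample 1 among the ILT3+ libraries. Prdm1, which encodes Blimp-1, and Id2, an inhibitor of E proteins, had log2 fold changes of 3.64 and 2.96 (adjusted p = 0.000435 and 0.000906, edgeR). The most abundant genes without a call were Il2rb, a subunit of the IL-2 and IL-15 receptors, at 1079 ± 59.8 CPM in ILT3+ libraries and 906 ± 461 CPM in ILT3- libraries, and the repressor gene Bach2, at 305 ± 143 CPM in ILT3+ libraries and 993 ± 356 CPM in ILT3- libraries (SD, n = 3 each). With the block Bach2 had an adjusted p of 0.00131 (edgeR, without it log2 fold change -1.70, adjusted p = 0.0981).

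The files hold 22 further rows named Klr, of which 6 had no read in any library, 9 had 1 to 9 reads and 7 had at least 10. Among these 7, Klrb1a, another NKR-P1 gene, had 38, 92 and 104 reads in ILT3+ samples 1, 2 and 3, against 0, 8 and 8 reads in ILT3- samples 1, 2 and 3. It was the only one with enough reads for a test (log2 fold change 3.89 ± 0.95 SE, adjusted p = 0.0940, edgeR), and with the sample number as a block its adjusted p was 0.0331. Klri2 had 8, 11 and 18 reads in ILT3+ libraries and 0 in all ILT3- libraries. No fold was formed against the group without reads. Klra2, a Ly49 gene, had 53, 3 and 2 reads in ILT3+ libraries, against 6, 0 and 1 reads in ILT3- libraries, so that 92.5% of its ILT3+ level was in ILT3+ sample 1. Klrg2 had 1, 6 and 19 reads in ILT3+ and 0, 7 and 11 in ILT3- libraries, Klrb1 had 0, 11 and 8 in ILT3+ and 0, 8 and 0 in ILT3- libraries, Klri1 had 7, 0 and 5 in ILT3+ and 1, 6 and 5 in ILT3- libraries, and Klra9 had 1, 2 and 1 in ILT3+ and 8, 1 and 0 in ILT3- libraries. The groups of these 4 overlapped. All 14 Ly49 rows together held 96 reads.

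The genes whose levels ran most like those of Klrg1 over the 6 libraries, among 8572 tested genes of at least 10 CPM on average, were Slc25a53, Ckb and Lrrk1 (Pearson r of log2(CPM + 1) 0.999, 0.997 and 0.996). For Klrb1b they were Cobll1, Hilpda and S100a11 (r 0.995, 0.994 and 0.992). These correlations over 6 libraries largely follow the difference between the groups and are a description. Ckb, a creatine kinase gene, was at 146, 138 and 97.6 CPM in ILT3+ libraries, against 32.8, 9.90 and 16.1 CPM in ILT3- libraries, so that it shares with Klrg1 the higher level in ILT3- sample 1. S100a11, a calcium-binding protein gene, was at 83.5, 94.7 and 92.4 CPM in ILT3+ libraries, against 16.3, 28.5 and 28.9 CPM in ILT3- libraries, and like Klrb1b was lowest in ILT3- sample 1.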

How the data were processed

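Per the labels' protocols, 1 ng of total RNA per library was amplified as full-length cDNA (SmartSeq V2) and tagged with Nextera XT. The authors deposited 1 table of read counts per library, with total and unique counts over genes, exons and introns. The submitters' processing notes name the build GRCm38. Not given in the sources used here are the aligner, counting tool, annotation and use of strand.

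Total gene reads, which include introns and reads that match elsewhere, were tested with edgeR 4.0.16 in R 4.3.3 (TMM, default filter with minimum count 10, robust quasi-likelihood fit on group, Benjamini-Hochberg at 0.05 over all 13694 tested genes). For each SE, the log2 fold change was divided by the square root of F. An exact permutation test of 3 against 3 libraries cannot go below p = 0.1, the value 4 members reached. Alternatives were other count columns, RLE or no size factor, other filters, DESeq2 1.42.0, voom in limma 3.58.1, a replicate block and libraries left out. The code was tried on simulated counts. Shared bases were counted as 50-base stretches of GENCODE M21 transcripts on GRCm38.

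Intervals and floors cover counting error only. No pair of libraries was as close as counting noise allows (chi-square per degree of freedom from 18.3 to 128). Sample numbers 1 to 3 occur in both groups, and libraries of equal number had correlated deviations from their group's mean (r = 0.454, 0.305 and 0.316). Each passed a bound of 0.1, so fits with the sample number as a block are given beside the main test, which was on group only and unpaired. A pairing by number would come from the data and not the labels. The bound was also passed by the crossed pairs of numbers 2 and 3 (0.201 and 0.138), so it cannot settle which libraries are pairs.

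The members, lists, motifs and named genes (members; Klr rows of at least 10 reads; in each pathway list the called genes and the 2 most abundant others; marker sums; the 3 most alike genes of the 2 most abundant members) were chosen with earlier results of these data known. Csf1r, C1qb, C1qc, Tcrg-C1, Ncr1, Hcst, Ptpn6, Inpp5d, Pik3r1, Plcg1, Tbx21, Id3, Foxo1, Cdh1 and the further genes of the adaptor plot were named after their values were seen. So were Cdh2, Cdh4, Fcgr3, Flt3, Zbtb46, Xcr1, Itgax, Siglech, Clec9a, Zbtb16, Trav11d and Traj18. The deposited RPKM column was not used here. One gene of the innate lymphoid cell list is not reported here, and the counts and sums of that list leave it out.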

Additional observations from a re-analysis of the deposited data

How the results depend on the processing

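With the replicate block, 932 genes were called against 316 without it, and it changed no call of the 8 receptor genes. Without both samples numbered 1 the count was 786, by DESeq2 951 and on unique exon reads 204. Leaving out 1 library gave 31 to 322 genes and 0 to 2 called receptor genes against 3. The log2 fold changes then ran from 2.82 to 3.70 for Klrg1, 5.46 to 8.87 for Klrk1, 4.30 to 5.55 for Klrb1b, 3.26 to 5.75 for Klrb1f and 0.14 to 3.00 for Klrc1. Klrk1 lost its call on total exon reads (6.0) and unique exon reads (5.99), and Klrb1b without an expression filter (4.86). Klrb1f gained one by DESeq2 (5.11). No receptor gene that passed the main filter changed sign under any setting tried, and the other settings kept the calls. For Klrg1, Klrb1b, Klrk1 and Klrb1f the groups did not overlap, so a change of sign was hardly possible. The cause of the lost calls was not tested beyond the fewer libraries of each such fit. Klrb1c, Klrd1 and Klrc2 had too few reads for the main test and were not called without a filter either (edgeR). Depth limits what can be said of Klrk1, Klrb1c, Klrc1, Klrc2 and Klrd1, which had 3 or fewer reads in at least 2 libraries each, since 3 reads stand for 0.218 to 0.360 CPM.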

Other observations

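ILT3- sample 1 departed from the other ILT3- libraries in opposite ways for members of the family. It had the highest ILT3- level of Klrg1, 54.2 CPM against 17.0 and 26.1 CPM in ILT3- samples 2 and 3, and of Klrc1, 2.28 CPM against 0 and 0.363 CPM. It was the only library with no Klrb1b read, against 5.19 and 7.92 CPM in ILT3- samples 2 and 3. Eomes, a T-box factor gene of NK and memory CD8 T cells, was at 6.01 CPM there, against 1.73 and 0.145 CPM in the same libraries, and Zeb2, an effector cell factor gene, at 0.841 CPM, against 9.98 and 24.5 CPM. These genes were picked after their values were seen, and no test was made.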
